A study of Mus musculus with 6 samples.

Results

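The genes described here encode molecular chaperones and folding enzymes, among them Dnajc15. They were chosen by name, as every probe whose gene symbol belongs to the DnaJ, Hsp70 (Hspa), Hsp90, small heat shock protein (Hspb), Hsp60 and Hsp10 (Hspd1, Hspe1), CCT chaperonin (Tcp1 and the Cct genes), FK506-binding protein (Fkbp) or cyclophilin (Ppi) families. The array held 94 such genes with 128 probes, of 18138 genes and 25697 probes in all, and 27 of the 94 genes had more than 1 probe. The name match also took in Hspbap1, which encodes a protein that binds Hspb1, and Lrr1, listed under its older name Ppil5, which encodes a leucine-rich repeat protein. Neither is itself a chaperone, neither was above background on any array, and they are counted below with the small heat shock and cyclophilin probes. The set was put together around Dnajc15, a gene selected on its difference between lines in earlier results of these same arrays, so its values are given as a description with no test.

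Samples came from 3 mouse cell lines, each hybridized to 2 single-color bead arrays. All were derived from lung of athymic nude mice by sorting cells that carried Flk-1 and c-Kit and lacked CD45, and all were grown in endothelial medium with fetal bovine serum. EPC was this primary line at passage 3 to 6. EPC_acLDL came from EPC cells labeled with fluorescent acetylated low density lipoprotein, of which the positive ones were sorted and grown again, and was harvested at passage 3 to 6. EPC_Late was the EPC_acLDL line carried on in culture and harvested at passage 16 to 20. Each group was therefore 1 cultured line, and the sources do not settle whether its 2 arrays came from separate cultures, so the p-values below measure only the spread between these arrays, which may be technical. EPC_Late differed from EPC by both the sort and the passage, which cannot be told apart in that comparison.

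Chaperones bind unfolded or partly folded proteins. Hsp70 proteins do so in cycles driven by ATP, and DnaJ proteins (also called Hsp40) bring them their clients and start the cycle. Hsp60 with its lid Hsp10 in mitochondria, and the CCT ring in the cytosol, enclose a client in a chamber, with actin and tubulin the best known clients of CCT. Cyclophilins and FK506-binding proteins turn proline bonds in the protein chain. Endothelial cells, like nearly all cells, need these proteins throughout. Some of the genes are induced by heat shock factors through a short promoter element, the heat shock element. DNAJC15 is a DnaJ protein of the mitochondrial inner membrane, known as an inhibitor of respiratory complex I and as a partner of the import motor.

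The promoter windows of the chaperone genes were searched for heat shock elements, as GAANNTTC or TTCNNGAA. These are pairs of facing heat shock units, which read the same on both strands. Each window ran from 250 bases before to 50 bases after a RefSeq start site (GRCm38.p6). Of the 94 genes, 75 had an entry, with 97 windows, and 20 of these windows (20.6%) held a match, against 15.1% of all 32851 windows. The Hspd1 and Hspe1 windows are shown because these adjacent genes start from 1 shared region in opposite directions, and the Dnajc15 window because this gene had the widest spread between lines. Capitals mark the matches.
Hspd1, chr1:55087883-55088182, minus strand: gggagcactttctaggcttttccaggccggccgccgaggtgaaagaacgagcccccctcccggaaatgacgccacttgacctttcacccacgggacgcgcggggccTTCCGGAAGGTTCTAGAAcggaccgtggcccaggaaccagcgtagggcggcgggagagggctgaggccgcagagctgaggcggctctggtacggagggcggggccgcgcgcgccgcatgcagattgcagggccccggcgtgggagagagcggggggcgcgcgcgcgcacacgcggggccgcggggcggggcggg
Hspe1, chr1:55087898-55088197, plus strand: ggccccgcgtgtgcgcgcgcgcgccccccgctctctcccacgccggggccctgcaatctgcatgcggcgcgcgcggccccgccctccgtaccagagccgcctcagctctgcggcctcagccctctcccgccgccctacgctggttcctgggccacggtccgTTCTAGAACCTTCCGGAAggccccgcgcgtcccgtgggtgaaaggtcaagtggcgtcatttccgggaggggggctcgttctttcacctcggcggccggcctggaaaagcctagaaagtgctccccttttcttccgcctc
Dnajc15, chr14:77874868-77875167, minus strand: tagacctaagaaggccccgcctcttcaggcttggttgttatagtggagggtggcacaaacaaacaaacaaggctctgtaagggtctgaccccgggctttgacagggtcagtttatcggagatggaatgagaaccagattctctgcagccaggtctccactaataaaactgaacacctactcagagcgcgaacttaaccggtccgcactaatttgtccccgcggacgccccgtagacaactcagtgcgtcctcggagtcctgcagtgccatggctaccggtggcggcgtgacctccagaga

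Hspd1 had a second window, chr1:55088194-55088493 on the minus strand, with no match. The printed Hspd1 and Hspe1 windows overlapped and held the same run of 3 overlapping matches, read on opposite strands, which began 144 bases before this Hspd1 start and 89 bases before the Hspe1 start. Dnajc15 had no match, and neither did the Tcp1 window (chr17:12916079-12916378, plus strand). These are matches of letters within 300 bases and do not show binding.

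A probe was taken as above background on an array where its deposited detection p-value was below 0.05. Of the 128 chaperone probes, 13 probes of 12 genes (10.2%) were above background in at least 1 line on its 2 arrays, against 9.08% of all probes, and 10 probes of 10 genes (7.81%) on all 6 arrays, against 6.56% of all probes. These shares were near those of the whole array. The remaining 115 probes did not pass in any line, and 111 of them were above background on no array. Thus 82 of the 94 genes gave no level that could be compared.

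**Figure D1:**
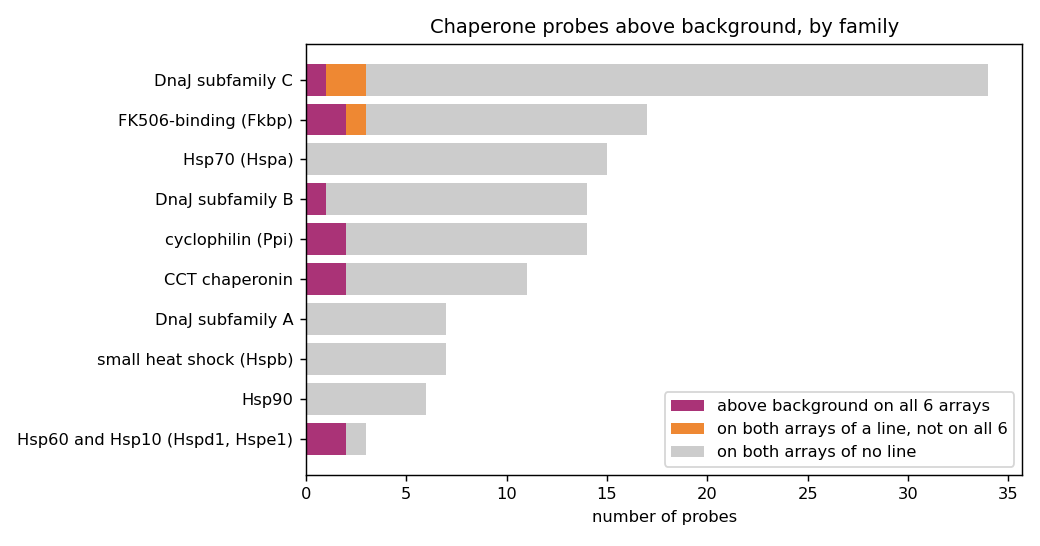
Number of chaperone probes (horizontal axis) in each family (vertical axis), split by whether the probe was above background on all 6 arrays, on the pair of arrays of some line only, or on the pair of no line. Every Hsp70, Hsp90, small heat shock and DnaJ subfamily A probe falls in the last class, while both Hspd1 and Hspe1 had a probe above background on all arrays.

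By family, above-background signal on all 6 arrays was found for 2 of 11 CCT probes, 2 of 14 cyclophilin probes, 2 of 17 Fkbp probes, 2 of 3 Hsp60 and Hsp10 probes, 1 of 14 DnaJ subfamily B probes and 1 of 34 DnaJ subfamily C probes. None of the 15 Hsp70, 6 Hsp90, 7 small heat shock and 7 DnaJ subfamily A probes passed in any line. Of the leading genes of the families, 18 with 24 probes were above background on no array, at intensities of 256 to 417. They included Hspa8, the constitutive cytosolic Hsp70, at 261 to 328, the endoplasmic reticulum Hsp70 Hspa5 at 274 to 387, the mitochondrial Hsp70 Hspa9 at 263 to 409.5, and the cytosolic Hsp90 genes Hsp90aa1 at 256 to 407 and Hsp90ab1 at 276 to 417. Hsp90b1, Hspb1, Dnaja1, Dnajb1, Fkbp1a, Fkbp4, Cct2, Cct3, Cct4, Cct5, Cct6b, Cct7 and Cct8 were likewise not above background. This does not show that the genes were silent: of 52 ribosomal protein genes, which every cell uses, 19 (36.5%) had a probe above background on all arrays and 29 had none on any array. Probes of the same gene also often differed. Of 2967 genes with exactly 2 probes, 360 had a probe above background on all arrays, and in 33 of these both probes were. Where 1 probe was, the other was in 16.8% of cases, against 6.62% of single probes of these genes. Every value named by gene here rests on the deposited pairing of probe identifiers with values, and whether that pairing is correct was not settled from the files.

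The arrays themselves were alike, with median intensities of 305 to 359, 2177 to 2365 probes above background per array, and Pearson correlations of 0.989 to 0.992 across probes between the 2 arrays of a line. Of 15 endothelial marker genes only Kdr, the gene of Flk-1, was above background, at 549 to 609 on all 6 arrays, and none of 7 blood markers was. Of 9 mesenchymal markers, Acta2 and Col1a2 were, and of 7 epithelial markers Cdh1 was. The endothelial share, 6.67% of genes, was near the 6.56% of all probes that were above background on all arrays. These counts therefore say little about the cell type.

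Dnajc15 had the widest spread of any chaperone above background. Its intensity (probe ILMN_2813454) was 341 and 382 in EPC, 611 and 604 in EPC_acLDL, and 1333 and 1489 in EPC_Late. The lines did not overlap, and the order was EPC, EPC_acLDL, EPC_Late. The EPC arrays were not above background, with detection p-values of 0.197 and 0.165, so EPC has only an upper bound. After background correction and quantile normalization of the arrays together, the mean log2 signal was 7.94 ± 0.11 in EPC_acLDL and 10.14 ± 0.15 in EPC_Late (SD, n = 2). On this background-corrected scale, the level in EPC_Late was at least 9.88-fold, and that in EPC_acLDL at least 2.15-fold, the lowest signal above background on the EPC arrays. These bounds hold only for that correction: with no background correction the log2 difference from EPC was 1.99 for EPC_Late and 0.67 for EPC_acLDL. Between EPC_Late and EPC_acLDL, both above background, the difference was 2.20 on the log2 scale, or 4.59-fold, and 1.32 on the log2 scale with no background correction. Directions rest on the array labels, since the study lists Sox2 as lower in EPC_acLDL and EPC_Late than in EPC and these columns run the other way. Sox2 intensity was 1098 and 1126 in the columns labeled EPC, 4077 and 3913 in those labeled EPC_acLDL and 5641 and 5457 in those labeled EPC_Late.

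The other mitochondrial chaperones can be set beside Dnajc15. Of 11 such genes on the array, 3 had a probe above background in a line: Dnajc15, Hspd1 and Hspe1. Dnajc19, a related DnaJ protein of the same import motor, had 3 probes, at 265 to 479, and none passed in any line. None of 13 genes of the import motor and matrix quality control had a probe that passed.

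**Figure D2:**
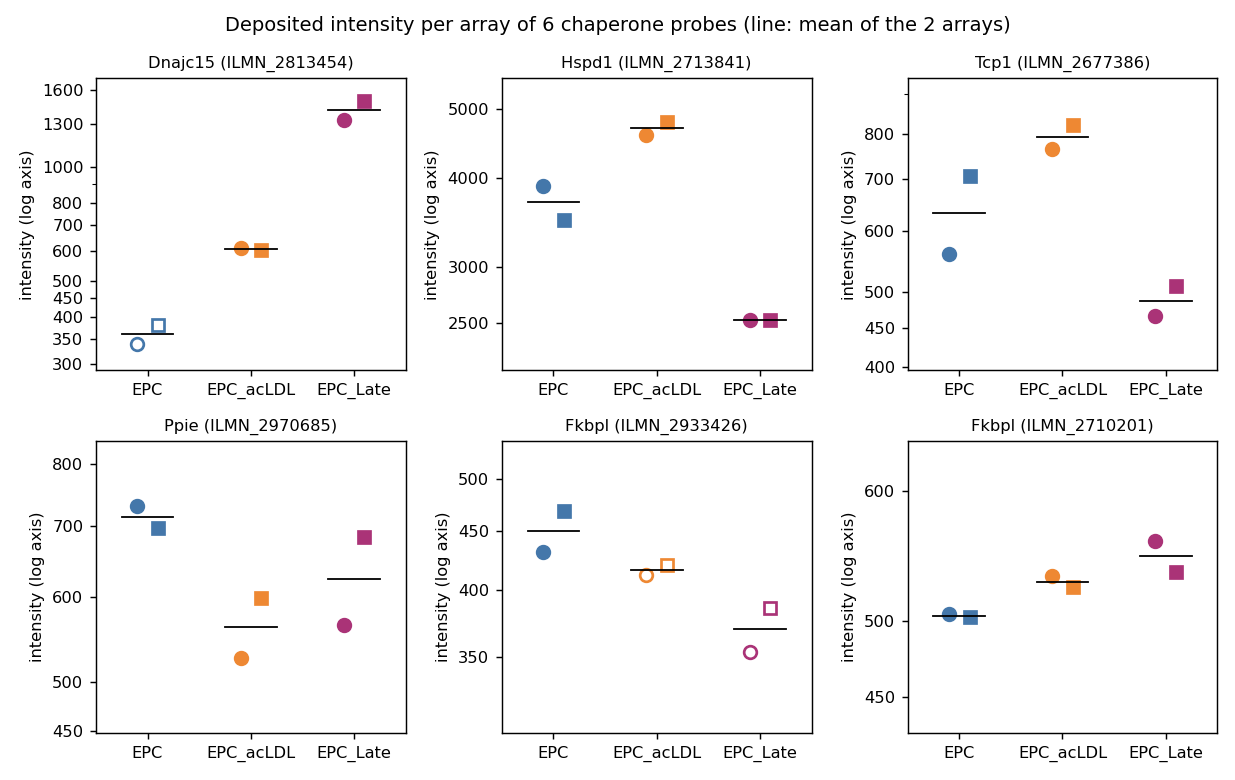
Deposited intensity (vertical log axes, each panel with its own range) on the 6 arrays of the 3 lines for 6 chaperone probes. Circles are replicate 1, squares replicate 2, filled where the probe was above background, and the short lines are means of 2 arrays. Dnajc15 climbs from 341 on an EPC array to 1489 on an EPC_Late array, Hspd1 and Tcp1 are lowest in EPC_Late, and Fkbpl ILMN_2933426 falls from 469 on an EPC array to 354 on an EPC_Late array while Fkbpl ILMN_2710201 stays between 503 and 559.

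Lines were tested with limma on the log2 signals of the 2333 probes that passed in at least 1 line, with Benjamini-Hochberg adjustment over all of them. Calls among chaperones were read only for the 10 probes above background on all 6 arrays, since a probe that passes through 1 bright line had to differ. For EPC_acLDL against EPC, which asks what the acLDL sort changed, limma called 0 of the 10 (1 at an unadjusted p below 0.05), where 2.14% of all such probes were called higher and 1.3% lower. For EPC_Late against EPC, 0 were called higher and 2 lower, where 11.2% of all were called higher and 14.4% lower. For EPC_Late against EPC_acLDL, which asks what high passage changed, 0 were called higher and 2 lower, where 9.67% of all were called higher and 13% lower. With 10 probes, counts of 0 and 2 are close to what these shares give. The median log2 difference of the 10 was 0.14, -0.02 and 0.00 in the 3 comparisons, beside -0.01, 0.00 and 0.01 over all 1686 probes above background on all arrays. The 2 lower probes were those of Hspd1 and Tcp1 in both comparisons, which share the EPC_Late arrays.

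Hspd1 encodes Hsp60, the mitochondrial chaperonin. Its intensity (probe ILMN_2713841) was 3901 and 3490.4 in EPC, 4598 and 4805 in EPC_acLDL, and 2524 and 2522 in EPC_Late. Both EPC_Late arrays lay below all 4 others. Against EPC, Hspd1 in EPC_Late was 1.61-fold lower (-0.69 on the log2 scale, SE 0.12, limma adjusted p = 0.00724), and against EPC_acLDL it was 1.77-fold lower (-0.83, SE 0.12, limma adjusted p = 0.00451). By the methods' t-test with Benjamini-Hochberg adjustment, a step the methods do not state, neither difference was called. Between EPC_acLDL and EPC the log2 difference was 0.14 (95% interval -0.14 to 0.42, adjusted p = 0.561 by limma). A further Hspd1 probe, ILMN_2639036, was at background on every array, at 324 to 396, and gives no second reading.

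Hspe1 encodes Hsp10, the lid of Hsp60, and shares its promoter region, as printed above. Its intensity was 468 and 477 in EPC, 539.9 and 519.6 in EPC_acLDL and 513 and 549 in EPC_Late. The values of EPC_acLDL and EPC_Late overlapped and those of EPC lay just below. No comparison was called, and the log2 difference of EPC_Late from EPC was 0.17 (95% interval -0.23 to 0.57, adjusted p = 0.551 by limma). Hspe1 was thus called in no comparison and Hspd1 was called lower in 2, but whether the changes of the genes differ was not tested.

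Tcp1 encodes the alpha subunit of CCT. Its intensity (probe ILMN_2677386) was 560.0 and 706 in EPC, 766 and 820.5 in EPC_acLDL, and 467 and 509 in EPC_Late. Again both EPC_Late arrays lay below all 4 others. Against EPC, Tcp1 in EPC_Late was 2.43-fold lower (-1.28 on the log2 scale, SE 0.22, limma adjusted p = 0.00793), and against EPC_acLDL it was 3.09-fold lower (-1.63, SE 0.22, limma adjusted p = 0.00407). As with Hspd1, the methods' t-test with this added adjustment called neither difference. The call against EPC was lost without EPC_Late replicate 1 (log2 difference -1.15, limma adjusted p = 0.0531). The probe is dim, and with no background correction the differences were -0.50 and -0.68 on the log2 scale, still called. The log2 difference of EPC_acLDL from EPC was 0.35 (95% interval -0.18 to 0.88, adjusted p = 0.427 by limma).

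Of the 9 CCT genes on the array, Cct6a was the other one above background. Cct6a encodes the zeta subunit of the same ring, and its intensity was 526 and 551 in EPC, 593 and 623 in EPC_acLDL and 569 and 554 in EPC_Late. No comparison of Cct6a was called. Its limma log2 differences were 0.15 for EPC_acLDL against EPC (adjusted p = 0.564) and -0.14 for EPC_Late against EPC (adjusted p = 0.513). For EPC_Late against EPC_acLDL it was -0.29 (adjusted p = 0.174 by limma). The sign for EPC_Late against EPC, after background correction and quantile normalization, is opposite to that of the deposited intensities. The second Tcp1 probe, ILMN_2774140, was at background on every array, at 315 to 392. Tcp1 is therefore the only CCT gene with a called difference, by 1 probe, and the 7 other genes of the ring besides Cct6a gave no reading.

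**Figure D3:**
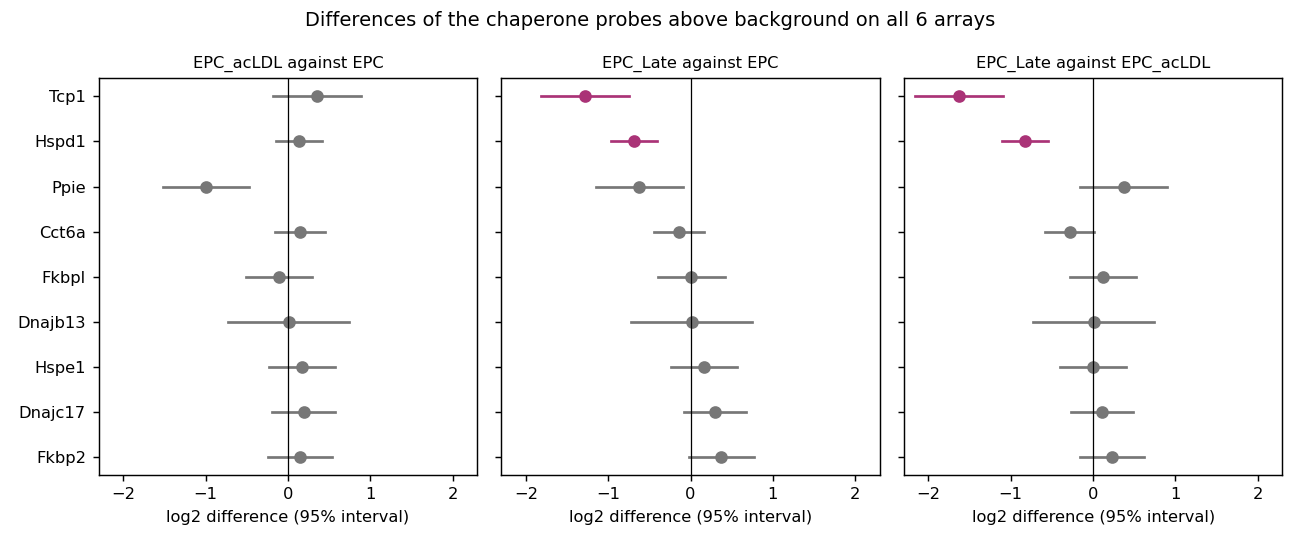
Log2 difference (horizontal axes, first line minus second) with its 95% interval from limma for 9 chaperone genes above background on all 6 arrays (vertical axis), in the 3 comparisons. Ppia is left out as its probe is near the top of the scale. Purple marks an adjusted p below 0.05, which Hspd1 and Tcp1 reach in both EPC_Late comparisons, at -0.69 and -1.28 against EPC.

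Among the proline isomerases, Ppia, or cyclophilin A, was the brightest chaperone probe, at 64413 to 70815, which is 90.6% to 99.4% of the brightest intensity on each array. So close to the top of the scale a fold would mean little, and none is given. Ppie, a cyclophilin of the spliceosome, was chosen for mention after its values were seen. Its intensity was 731 and 697 in EPC, 527 and 599 in EPC_acLDL and 566 and 684 in EPC_Late. Both EPC arrays lay above the 4 others, but no comparison was called, with a log2 difference of -0.99 between EPC_acLDL and EPC (95% interval -1.52 to -0.47, adjusted p = 0.0654 by limma) and of -0.62 between EPC_Late and EPC (adjusted p = 0.0924 by limma). Each of these differences was called under 4 of the other limma settings tried, among them no background correction, where they were smaller, at -0.46 and -0.30 on the log2 scale.

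Fkbpl, an Fkbp-like protein that binds Hsp90, had a pair of probes with different readings. ILMN_2933426 was at 432 and 469 in EPC, 412.5 and 421 in EPC_acLDL and 354 and 386 in EPC_Late, above background on the EPC arrays alone. On the background-corrected scale this gives a level in EPC at least 1.23-fold that in EPC_acLDL and at least 1.20-fold that in EPC_Late, with no fold between the latter lines. With no background correction EPC_acLDL differed from EPC by -0.18 and EPC_Late by -0.41 on the log2 scale, so the first bound rests on the correction. ILMN_2710201, above background on all arrays, was at 505 and 503 in EPC, 532 and 524 in EPC_acLDL and 559 and 536 in EPC_Late. Its log2 differences were -0.11, 0.01 and 0.12 in the 3 comparisons, none called. The sign for EPC_acLDL against EPC, after background correction and quantile normalization, is opposite to that of the deposited intensities. The gene as a whole therefore has no settled direction.

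Dnajc10, a DnaJ protein of the endoplasmic reticulum that reduces disulfide bonds, passed through probe ILMN_3128019, at 379.9 and 474 in EPC, 455 and 528.5 in EPC_acLDL and 461 and 504 in EPC_Late. It was above background on 5 of the 6 arrays, all but EPC replicate 1, and the values of the lines overlapped. Its second probe, ILMN_3051651, lay just outside the threshold, with its lowest line at a detection p-value of 0.0551, as did Dnajc28 at 0.0589 and Dnajc19 at 0.0614. Just inside were Fkbpl ILMN_2933426 at 0.0439, Dnajc10 ILMN_3128019 at 0.0363 and Hspe1 at 0.0213.

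The remaining chaperones above background on all arrays were Dnajb13, a protein of sperm and cilia axonemes, Dnajc17, which has a J domain and an RNA-binding domain, and Fkbp2, an isomerase of the endoplasmic reticulum. Over the 3 genes and 3 comparisons the log2 differences ran from 0.01 to 0.38, and none was called. Of 14 endoplasmic reticulum chaperones on the array, Fkbp2 and Dnajc10 were thus the ones with signal. Of 13 heat-inducible cytosolic or mitochondrial chaperones, Hspd1 and Hspe1 were, so the heat shock response as a whole could not be read from these probes.

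Genes outside the named families that work with chaperones gave a few calls. Of 19 genes of endoplasmic reticulum folding and its stress response, 3 were above background, on all 6 arrays, and the 3 were higher in EPC_Late than in EPC, beside 11.2% of all probes called higher. Ddit3 (also called CHOP), a transcription factor induced by endoplasmic reticulum stress, was at 484 and 509.8 in EPC, 431 and 481 in EPC_acLDL and 730 and 882 in EPC_Late. Its log2 difference was 1.29 from EPC (SE 0.16, adjusted p = 0.00236 by limma) and 1.95 from EPC_acLDL (SE 0.16, adjusted p = 0.000827 by limma). The probe is dim, and with no background correction these were 0.59 and 0.81, still called. Both EPC_Late arrays lay above all others.

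Pdia5, a protein disulfide isomerase, was at 622 and 600.3 in EPC, 677 and 688 in EPC_acLDL and 959 and 1094 in EPC_Late. It was higher in EPC_Late by a log2 difference of 1.14 from EPC (SE 0.14, adjusted p = 0.00194 by limma) and 1.08 from EPC_acLDL (SE 0.14, adjusted p = 0.00325 by limma), and by 0.65 and 0.62 with no background correction, also called. Pdia3, the isomerase that acts with the calnexin cycle, was at 35037 and 32623 in EPC, 47133 and 42511 in EPC_acLDL and 45599 and 46421 in EPC_Late. EPC lay below the other lines, and the log2 difference of EPC_Late from EPC was 0.61 (SE 0.13, adjusted p = 0.0158 by limma). That call was lost without EPC replicate 1 (0.64, limma adjusted p = 0.0535), without EPC replicate 2 (0.55, limma adjusted p = 0.0822), without EPC_Late replicate 2 (0.49, limma adjusted p = 0.0865) and with a 75th percentile shift in place of quantile normalization (0.37, limma adjusted p = 0.103). The other genes of this list had no probe that passed.

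Of 20 co-chaperones and heat shock factors on the array, 4 were above background in a line and 2, Bag6 and Hsf1, on all arrays. Bag6, a chaperone of membrane proteins on their way to the membrane, was at 978 and 904 in EPC, 867 and 861 in EPC_acLDL and 803 and 806 in EPC_Late. It was lower in EPC_Late than in EPC by a log2 difference of -0.56 (SE 0.12, adjusted p = 0.0205 by limma), a call lost without EPC replicate 1 (-0.45, limma adjusted p = 0.0864), without EPC_Late replicate 1 (-0.56, limma adjusted p = 0.0821) or replicate 2 (-0.54, limma adjusted p = 0.0933), and without normalization between arrays (-0.45, limma adjusted p = 0.0598). With no background correction it was -0.34, still called. Hsf1, the main heat shock factor, was at 1992 to 2338 and was called in no comparison. Its limma log2 difference was -0.48 for EPC_acLDL against EPC (adjusted p = 0.0804) and -0.10 for EPC_Late against EPC (adjusted p = 0.614). For EPC_Late against EPC_acLDL it was 0.38 (adjusted p = 0.0611 by limma).

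Of 7 prefoldin genes, whose complex hands actin and tubulin to CCT, 3 were above background and 2 on all arrays. Pfdn2 was at 11141 and 11634 in EPC, 14517 and 14815 in EPC_acLDL and 14225 and 14901 in EPC_Late. It was higher in EPC_Late than in EPC by a log2 difference of 0.55 (SE 0.12, adjusted p = 0.0179 by limma). EPC_Late and EPC_acLDL overlapped in intensity. After quantile normalization their log2 difference was 0.42, not called (adjusted p = 0.0530 by limma). The call was lost without EPC replicate 1 (0.49, limma adjusted p = 0.0884), EPC replicate 2 (0.56, limma adjusted p = 0.0646) or EPC_Late replicate 2 (0.50, limma adjusted p = 0.0811), with the 75th percentile shift (0.29, limma adjusted p = 0.164) and without normalization between arrays (0.36, limma adjusted p = 0.0662).

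Among the markers of other cell types, 1 was called, and only for EPC_Late against EPC. Col1a2, a collagen gene of mesenchymal cells, was higher in EPC_Late than in EPC by a log2 difference of 0.43 (SE 0.12, adjusted p = 0.0470 by limma). From EPC_acLDL to EPC_Late its difference was 0.16, not called (adjusted p = 0.439 by limma). The probe is dim, at 432 to 531 over the arrays. Acta2, a smooth muscle actin and the other mesenchymal marker above background, differed by -0.18 from EPC and -0.22 from EPC_acLDL on the log2 scale, neither called. The summed intensity of the 2 of 9 mesenchymal markers above background was 932 and 953 in EPC, 1016 and 1073 in EPC_acLDL and 1021 and 1065 in EPC_Late, and Col1a1, Col3a1, Dcn and Pdgfrb were not above background. Its part in the chaperone differences was not tested.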

How the data were processed

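Total RNA of 3 lines, 2 arrays each, was labeled with biotin and hybridized to Illumina mouse arrays of 25697 probes. The authors deposited one table of intensities per probe and array, made with local background correction and no normalization, and a detection p-value for each, which the authors' software computes against negative control probes. The chaperone genes and gene lists were chosen with earlier results of these data known. Intensities were corrected and quantile normalized with neqc in limma 3.58.1 (R 4.3.3; offset 16, background from the detection p-values). The 2333 probes that had, in at least 1 line, a detection p below 0.05 on its 2 arrays were fitted over all 6 arrays with lmFit and eBayes, without a block, and adjusted by Benjamini-Hochberg (threshold 0.05). Beyond the family leads and Dnajc15, chaperone probes were named where they passed in some lines only, or were called with a log2 difference of at least 0.5. Genes of the other lists were named where above background on all 6 arrays and called with such a difference. Others, among them Ppie, Hsf1 and the cell type markers, were named outside these rules. Where a line was above background on no array, its mean was replaced by the lowest signal above background (or its own if higher) to give a bound. All 94 genes were matched to RefSeq, 93 by symbol and 1 by synonym. The fit was tested on simulated data. Precision is limited by 2 arrays per line, which lay on one chip. Alternatives for background, scaling, filter, test and left-out arrays are given in the closing section.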

Additional observations from a re-analysis of the deposited data

How the results depend on the processing

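For EPC_acLDL against EPC, where 0 of the 10 chaperone probes on all arrays were called, 1 (Ppie) was called with an offset of 50 and a background fitted without detection p-values (both changed together), with no background correction, with a stricter detection filter and with limma-trend, and 3 by the methods' t-test unadjusted. For EPC_Late against EPC, with 2 calls, the methods' t-test gave 1 unadjusted and 0 adjusted, and leaving out an array gave 1 to 3. For EPC_Late against EPC_acLDL, with 2 calls, the adjusted t-test gave 0. The Dnajc15 difference of EPC_Late from EPC, 4.12 on the log2 scale with EPC at its measured value, was 2.95 with that offset and background, 1.99 with no background correction, and 4.05 to 4.25 with an array left out. The cause was not tested. For EPC_Late against EPC_acLDL it went from 2.20 to 1.73 and 1.32 under the first and second of these settings.

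Numbers on the arrays did not pair them (correlations of same-numbered arrays 0.02 to 0.08), and a replicate block left the chaperone calls at 0, 2 and 2, while calls over all 1686 probes went from 58, 431 and 382 to 29, 416 and 355. Over all these probes limma-trend called 240, 556 and 515, no background correction 243, 563 and 515, and the changed offset and background together called 136 for EPC_acLDL against EPC. The median log2 difference of these probes was -0.01, 0.00 and 0.01 after quantile normalization, 0.15, 0.01 and -0.15 with scaling by the 75th percentile, and 0.24, 0.08 and -0.16 with no normalization. Probes called higher for EPC_acLDL against EPC then went from 36 of 58 to 88 of 102 and 196 of 210, and for EPC_Late against EPC_acLDL from 163 of 382 to 90 of 381 and 89 of 403.

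With an array left out, differences that were not called turned sign: Hspe1 ran from -0.023 to 0.38 for EPC_acLDL against EPC and from -0.21 to 0.19 for EPC_Late against EPC_acLDL, Dnajc10 from -0.16 to 0.64 for EPC_Late against EPC and from -0.33 to 0.010 for EPC_Late against EPC_acLDL, and Pdia5 from -0.040 to 0.17 for EPC_acLDL against EPC. With these scalings Pfdn2 in EPC_Late against EPC_acLDL was -0.0029 and -0.013. Of 561 alternative values of single probes, 8 turned direction, 14 lost a call and 21 gained one. These 561 values come from the limma settings, and the calls lost by the t-tests are not among them. Signal over background limits what could be read, since 111 of the 128 chaperone probes were above background on no array.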
